A study of Mus musculus with 11 samples.

Results

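The genes described here are 9 genes of retinoid metabolism and binding, chosen by symbol from a table of 47643 genes. They are the retinaldehyde dehydrogenases Aldh1a1, Aldh1a2 and Aldh1a3, the retinaldehyde reductase Dhrs3, the retinol carrier Rbp4, the retinoic acid-binding proteins Crabp1 and Crabp2, the receptor Rarb and the chemerin gene Rarres2. All 9 were found in the table, and 8 were expressed highly enough to be tested. They were measured in fibroblasts sorted from normal skin (NS) and from excisional wounds 5 days after wounding (5dw) of wild-type (WT) mice and of mice that overexpress activin (Act). The question was how these genes differ with wounding and with the activin transgene.

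Act mice carry an INHBA transgene under the keratin 14 promoter, a promoter of basal keratinocytes. WT mice were littermates of Act mice, and all shared a mixed CD-1 and C57Bl/6 background and were 9 to 12 weeks old. The cells were live, carried CD140a (the product of Pdgfra) and lacked CD45, CD3, CD11b and F4/80. Each of the 11 libraries pooled the RNA of 3 animals: 3 libraries are WT NS, 3 are Act NS, 3 are WT 5dw and 2 are Act 5dw, numbered 1 and 3, because the authors excluded Act 5dw 2 after quality control. More RNA was put into the 5dw libraries than into the NS libraries, so RNA input and wounding cannot be told apart. Values are RPKM, the reads on a gene scaled to its length and to the mapped reads of its library.

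Vitamin A circulates as retinol bound to RBP4 and enters cells through STRA6 or by diffusion. Alcohol and short-chain dehydrogenases such as RDH10 oxidise retinol to retinaldehyde, DHRS3 returns retinaldehyde to retinol, and the ALDH1A enzymes oxidise retinaldehyde irreversibly to retinoic acid. CRABP1 and CRABP2 carry retinoic acid in the cytosol, RAR and RXR receptors bind it in the nucleus and act on direct repeats in DNA, and CYP26 enzymes degrade it. In skin, retinoids regulate the differentiation of the epidermis, the hair follicle and the sebaceous gland.

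Mapped reads were recovered from the RPKM values and ranged from 18649321 to 29718956 in WT NS, 22973068 to 24094687 in Act NS, 38740404 to 39702138 in WT 5dw and 20531292 to 25626301 in Act 5dw, so WT 5dw was the deepest group. Pdgfra was at 49.8 to 65.3 RPKM in NS and 29.6 to 37.3 RPKM in 5dw, and Ptprc, which encodes CD45, did not exceed 0.0498 RPKM. The summed level of 10 fibroblast markers was 12600 to 18300 RPKM in NS and 23900 to 27400 RPKM in 5dw. The summed level of 8 Schwann cell and melanocyte markers was 12.9 to 21.6 RPKM in NS and 4.22 to 6.91 RPKM in 5dw, and that of 4 mesothelial markers 0.118 to 0.376 RPKM and 0.406 to 0.653 RPKM. Sums of 8 endothelial markers overlapped, but Pecam1 was at 3.39 to 5.66 RPKM in NS and 11.5 to 14.0 RPKM in 5dw. Keratinocyte RNA was also present, with a summed level of 14 markers of 1390 to 5400 RPKM in NS and 178 to 1550 RPKM in 5dw. Fewer cells of a type and less RNA per cell cannot be told apart in these pooled libraries. The mouse gene Inhba, read as a check of the labels, was at 3.4 to 6.93 RPKM in WT NS and 36.3 to 91.1 RPKM in Act NS, a log2FC of 3.30 (SE 0.36, limma adjusted p = 0.0128). That call was lost in the fits that called 0 genes, namely with only the groups compared and without WT NS 2 or WT NS 3. In wounds it was at 15.8 to 24.0 RPKM in WT and at 26.2 and 50.2 RPKM in Act, a log2FC of 0.86 (SE 0.41, limma adjusted p = 1), so the genotype labels of the wound libraries are not checked by a call. The Inhba levels of Act NS 1, 2 and 3 were 36.3, 59.1 and 91.1 RPKM beside keratinocyte marker sums of 1420, 3480 and 5400 RPKM. Whether transgene reads or keratinocyte RNA entered the mouse Inhba count was not tested.

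Rarb and Cyp26a1 are textbook retinoic acid targets, and the sequence below shows the kind of element that retinoid receptors bind. Promoter windows of 300 bases (250 before to 50 after the start) were read from RefSeq on GRCm38.p6 for 6 of the 9 genes. They were searched on both strands for direct repeats of half-sites that read AGGTCA, that read AGTTCA, that read GGGTCA or that read GGTTCA, with a spacer of 1, 2 or 5 bases. Of the 6 genes, Rarb had a match, with a spacer of 5 bases. That spacing was found in 0.0974% of 32851 RefSeq windows, and any of the 3 spacings in 0.588%. The 250 bases before this Rarb start are given on its own (minus) strand, chr14:16575477-16575726, with the repeat and its spacer in capitals, at chr14:16575513-16575529:
Rarb: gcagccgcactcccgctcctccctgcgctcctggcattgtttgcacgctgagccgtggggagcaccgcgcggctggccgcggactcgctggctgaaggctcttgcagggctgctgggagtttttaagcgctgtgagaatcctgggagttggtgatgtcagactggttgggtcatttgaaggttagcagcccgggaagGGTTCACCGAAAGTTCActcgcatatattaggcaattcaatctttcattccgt
Among 48 other retinoid pathway genes, 37 had a window and 2 had a match. The Cyp26a1 match lies at chr19:37697776-37697792, has the same spacing and is read on the gene's plus strand, where the half-sites appear in the opposite orientation:
Cyp26a1: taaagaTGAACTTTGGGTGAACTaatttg
These matches describe letters in the windows and are not evidence of binding in these cells.

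**Figure D1:**
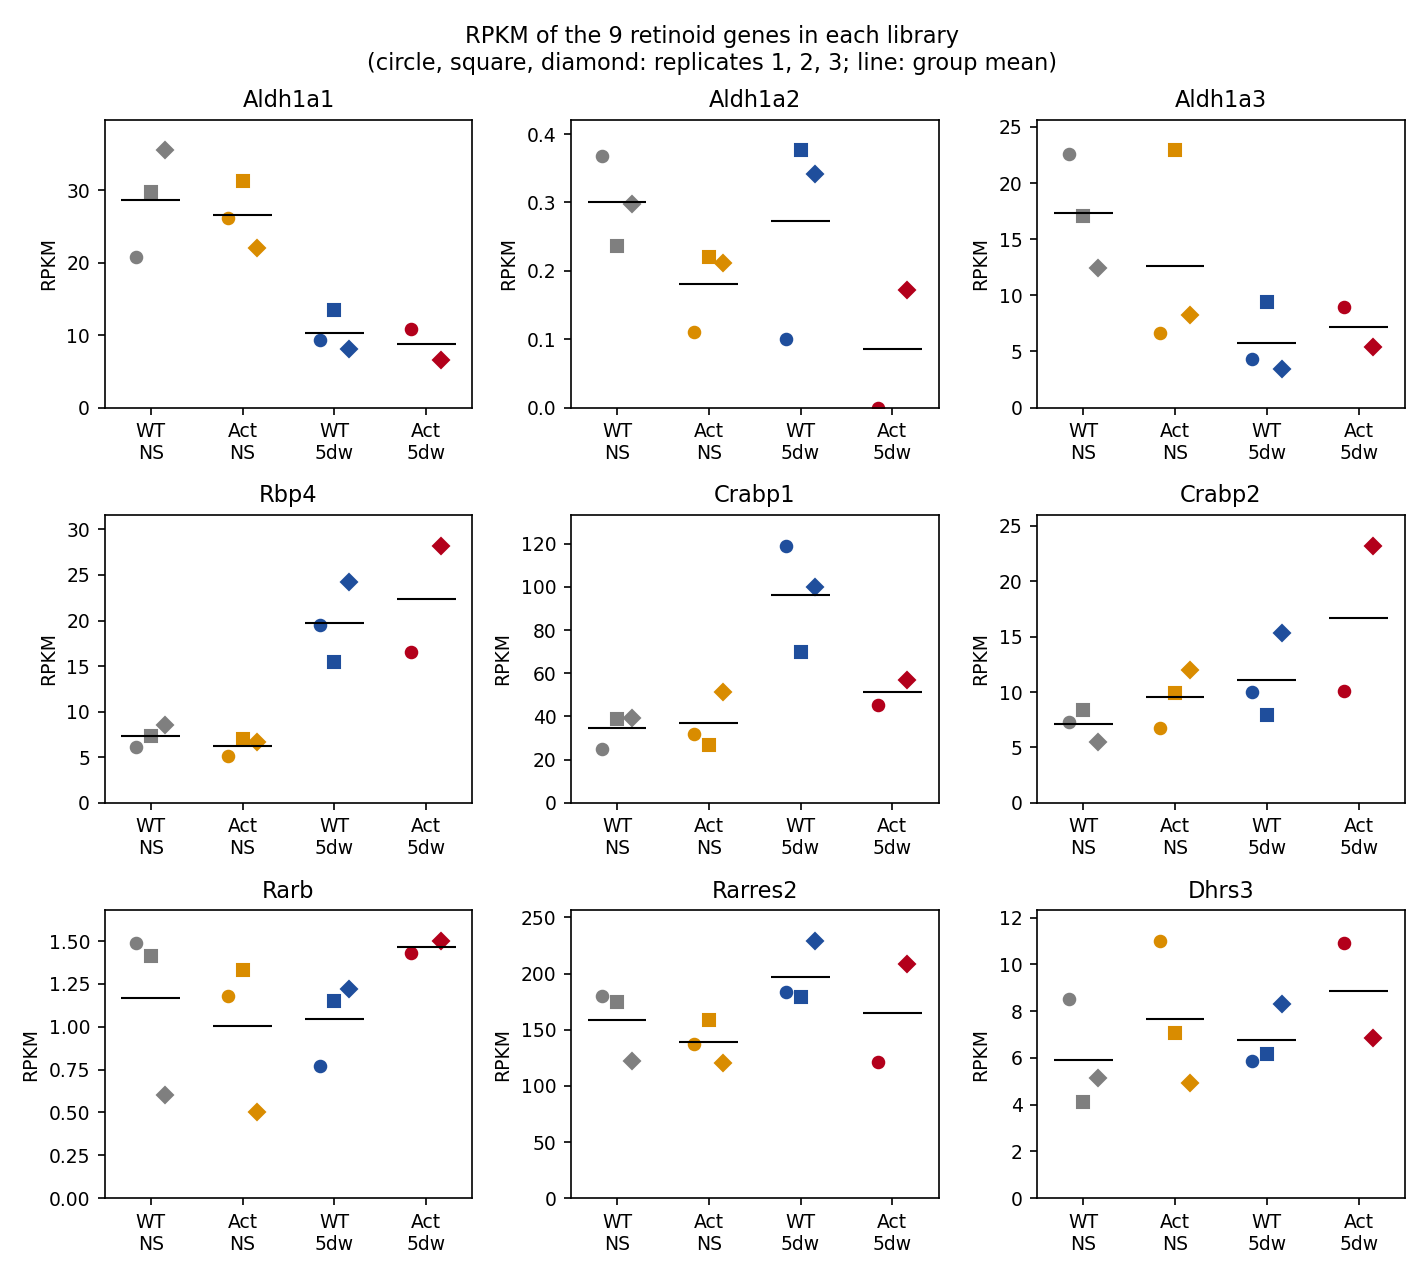
RPKM (vertical axes, linear, from 0) of the 9 genes in each of the 11 libraries by group, with circles, squares and diamonds for replicates 1, 2 and 3 and a line at the group mean. The 5dw libraries lie below every NS library for Aldh1a1 and above every NS library for Rbp4, and Crabp1 is highest in the 3 WT 5dw libraries.

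The 9 genes spanned a wide range of levels per length. Rarres2 was the highest in all groups, at 120 to 229 RPKM, which ranked it 283 among all genes in NS and 216 in 5dw by mean level. Crabp1 came next in 5dw and ranked 465 there. Rarb stayed at 0.502 to 1.5 RPKM, on 35 to 144 reads a library. Aldh1a2 was the lowest, at 0 to 0.376 RPKM on at most 33 reads, and fell under the minimum of 1 RPKM in at least 2 libraries that a gene needed to be tested.

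With wounding in WT mice, both tested retinaldehyde dehydrogenases fell and the carriers Rbp4 and Crabp1 rose. Of the 8 tested genes, 4 were differentially expressed (DEGs, limma adjusted p under 0.05), 2 of them higher and 2 lower in WT 5dw than in WT NS. The background was high, because 58.3% of the 11979 tested genes were DEGs in this comparison, 9.45% higher and 48.8% lower. The share of DEGs among the 8 genes was 50%, near that background. Their median log2FC (the difference of means of log2(RPKM + 0.5)) was 0.27, against -0.40 for all tested genes.

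In Act mice the same comparison of 5dw with NS gave 2 DEGs among the 8 genes, Aldh1a1 lower and Rbp4 higher. Among all tested genes 45.6% were DEGs, 9.04% higher and 36.5% lower. The median log2FC of the 8 genes was 0.33, against -0.31 for all tested genes. The downward shift of all genes depends on the scaling: dividing each library by its median ratio moved the median log2FC of all genes by 0.39 (WT) and 0.31 (Act), and moved the share of lower genes among DEGs from 83.8% to 49.7% (WT) and from 80.2% to 51.1% (Act). With that scaling 5 of the 8 genes (62.5%) were DEGs in WT against 44.6% of all tested genes, and 4 of 8 (50%) in Act against 40.7%. Each gene below is given on the RPKM scale, with the scaled value where it changed the call.

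**Figure D2:**
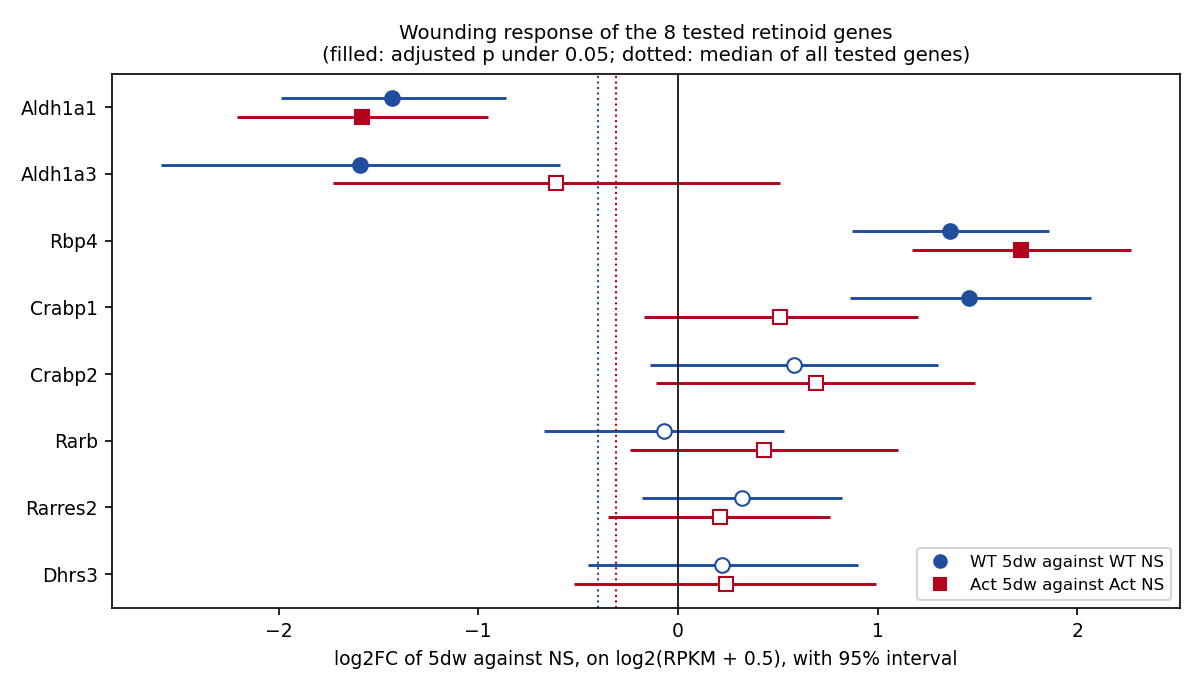
log2FC of 5dw against NS on log2(RPKM + 0.5) with 95% intervals for the 8 tested genes, in WT (circles) and Act mice (squares), with filled symbols for an adjusted p under 0.05 and dotted lines at the medians of all tested genes. Aldh1a1 lies at -1.43 and -1.58 and Rbp4 at 1.36 and 1.72, while Crabp1 lies at 1.46 in WT and 0.51 in Act.

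Aldh1a1 oxidises retinaldehyde to retinoic acid and lies on chromosome 19 (GRCm38, chr19:20492715-20643465, plus strand). It was at 20.8, 29.8 and 35.5 RPKM in WT NS and at 26.2, 31.3 and 22.1 RPKM in Act NS. It was at 9.37, 13.5 and 8.09 RPKM in WT 5dw and at 10.9 and 6.56 RPKM in Act 5dw. No 5dw library reached the lowest NS library in either genotype. The log2FC was -1.43 in WT (SE 0.26, 95% interval -1.99 to -0.86, limma adjusted p = 0.000911), a 2.69-fold lower level. In Act mice it was -1.58 (SE 0.29, -2.21 to -0.95, limma adjusted p = 0.00144), a 2.98-fold lower level. The call held in all 19 settings tried in each genotype, with adjusted p from 0.000583 to 0.00961 in WT and 0.00103 to 0.0237 in Act. Of the 31-base sequences of Aldh1a1, 5.7% also occur in its paralog Aldh1a7, and how such reads were assigned is not stated in the sources used. Aldh1a7 itself, looked up because of that overlap, was at 0.223 to 0.945 RPKM in NS and at 0 to 0.0499 RPKM in 5dw.

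Aldh1a3 catalyses the same step and is also known from epithelial cells (chr7:66390890-66427517, minus strand). It was at 22.6, 17.1 and 12.4 RPKM in WT NS and at 4.36, 9.38 and 3.45 RPKM in WT 5dw, without overlap. In Act NS it varied most, at 6.64, 22.9 and 8.25 RPKM, and it was at 8.96 and 5.35 RPKM in Act 5dw, within the Act NS range or just under it. The log2FC was -1.59 in WT (SE 0.45, 95% interval -2.59 to -0.59, limma adjusted p = 0.0117). Under median-ratio scaling that value was -1.16 (limma adjusted p = 0.0593), which ended the call, and the other 18 settings kept it. In Act mice the log2FC was -0.61 (SE 0.51, -1.73 to 0.51, limma adjusted p = 0.346). Without Act NS 2, the library at 22.9 RPKM, it was -0.09. The summed keratinocyte markers of Act NS 1, 2 and 3 were 1420, 3480 and 5400 RPKM, and their part in the spread of Aldh1a3 was not tested.

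Aldh1a2, the third enzyme of the family (chr9:71215789-71296243, plus strand), was at 0.237 to 0.368 RPKM in WT NS and 0.111 to 0.22 RPKM in Act NS. It was at 0.1, 0.376 and 0.342 RPKM in WT 5dw and at 0 and 0.172 RPKM in Act 5dw. The 0 in Act 5dw 1 allows a level of up to 0.0645 RPKM, the value of 3 reads there, for counting error only. In a fit without the minimum level, the log2FC of 5dw against NS was -0.07 in WT and -0.23 in Act (limma adjusted p = 0.818 and 0.431). A difference was not detectable at this depth.

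Taken as a sum per length, the 3 enzymes stood at 30.6 to 54.4 RPKM in NS and at 11.9 to 23.3 RPKM in 5dw, with no overlap. Aldh1a1 made up 47.5% to 79.5% of that sum in NS and 54.3% to 68.1% in 5dw, so its share overlapped between the tissues. Summed RPKM is a sum of transcript levels and not of enzyme activity.

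Dhrs3, which reduces retinaldehyde to retinol and is known as a retinoic acid-induced gene, did not pass the test in either genotype (chr4:144892827-144928209, plus strand). It was at 8.52, 4.12 and 5.15 RPKM in WT NS, 11, 7.05 and 4.92 RPKM in Act NS, 5.88, 6.15 and 8.32 RPKM in WT 5dw, and 10.9 and 6.84 RPKM in Act 5dw. All 4 groups overlapped. The log2FC of 5dw against NS was 0.22 in WT (SE 0.31, 95% interval -0.45 to 0.90, limma adjusted p = 0.55) and 0.24 in Act (SE 0.34, -0.52 to 0.99, limma adjusted p = 0.598). The intervals leave room for changes of up to nearly 1 on the log2 scale.

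Rbp4, the retinol carrier of plasma and a product of liver and adipose tissue, rose with wounding in both genotypes (chr19:38116629-38125281, minus strand). It was at 6.08, 7.32 and 8.51 RPKM in WT NS and at 5.12, 6.98 and 6.71 RPKM in Act NS. It was at 19.5, 15.5 and 24.2 RPKM in WT 5dw and at 16.5 and 28.2 RPKM in Act 5dw. The lowest 5dw library lay above the highest NS library, and the mean rank of Rbp4 among all genes went from 4750 in NS to 1497 in 5dw. The log2FC was 1.36 in WT (SE 0.22, 95% interval 0.87 to 1.86, limma adjusted p = 0.000546), a 2.57-fold higher level. In Act mice it was 1.72 (SE 0.25, 1.17 to 2.27, limma adjusted p = 0.000407), a 3.29-fold higher level. All 19 settings kept both calls. The summed level of 8 adipocyte markers was 2.6 to 3.41 RPKM in NS and 1.01 to 1.88 RPKM in 5dw. The highest of these markers in 5dw, Adipoq, was at 0.487 to 1.08 RPKM in NS, 0.411 to 0.821 RPKM in WT 5dw, and 1.27 and 1.13 RPKM in Act 5dw. The part of adipocyte RNA in Rbp4 was not tested. Ttr, whose product carries RBP4 in plasma, was at 0 in every library.

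Crabp1 binds retinoic acid in the cytosol and marks a subset of dermal fibroblasts (chr9:54764748-54773110, plus strand). It was at 25.0, 38.8 and 39.5 RPKM in WT NS and at 32.0, 26.9 and 51.5 RPKM in Act NS. In WT 5dw it was at 119, 69.6 and 99.8 RPKM, above every other library. In Act 5dw it was at 45.3 and 56.9 RPKM, within or just above the Act NS range. The log2FC of 5dw against NS was 1.46 in WT (SE 0.28, 95% interval 0.86 to 2.07, limma adjusted p = 0.00123), a 2.76-fold higher level that all 19 settings called. In Act mice it was 0.51 (SE 0.31, -0.17 to 1.20, limma adjusted p = 0.195). Median-ratio scaling gave 0.87 in Act (limma adjusted p = 0.0404), and the other 18 settings did not call it.

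The difference between the genotypes was tested directly. The interaction of wounding and genotype for Crabp1 was -0.95 (SE 0.41, 95% interval -1.86 to -0.04), with a limma p of 0.0429 before and 0.999 after adjustment over all genes, so the smaller rise in Act mice is not shown. Within 5dw, Act was lower than WT by a log2FC of -0.88 (SE 0.31, -1.56 to -0.20), with a limma p of 0.0159 before and 1 after adjustment. The wound groups of WT and Act did not overlap for Crabp1, but the Act group holds only 2 libraries. Leaving out each library in turn gave an interaction of -1.16 to -0.68. The summed level of 9 markers of hair follicle mesenchyme was 10.3 to 35.9 RPKM in NS, 1.78 to 1.95 RPKM in WT 5dw and 3.62 to 6.25 RPKM in Act 5dw, and its part in the Crabp1 values was not tested.

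Crabp2, which delivers retinoic acid to its receptors, is also known from the epidermis (chr3:87948666-87953376, plus strand). It was at 7.32, 8.4 and 5.5 RPKM in WT NS, 6.73, 9.92 and 12.0 RPKM in Act NS, 9.96, 7.93 and 15.3 RPKM in WT 5dw, and 10.1 and 23.2 RPKM in Act 5dw. Neighbouring groups overlapped. The log2FC of 5dw against NS was 0.58 in WT (SE 0.32, 95% interval -0.14 to 1.30, limma adjusted p = 0.145) and 0.69 in Act (SE 0.36, -0.11 to 1.49, limma adjusted p = 0.141). Median-ratio scaling gave 1.01 in WT and 1.04 in Act (limma adjusted p = 0.0284 and 0.0432). In Act mice 1 library decided the value: without Act 5dw 1 the log2FC was 1.27 (limma adjusted p = 0.0289), and without Act 5dw 3 it was 0.11. The highest Crabp2 of WT 5dw, 15.3 RPKM, was in replicate 3, whose summed keratinocyte markers were 1550 RPKM against 178 and 359 RPKM in replicates 1 and 2. In Act 5dw the keratinocyte sums were 397 and 473 RPKM beside Crabp2 at 10.1 and 23.2 RPKM. The part of keratinocyte RNA in Crabp2 was not tested.

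The ratio of Crabp1 to Crabp2 in RPKM was 3.41 to 7.19 in WT NS, 2.71 to 4.75 in Act NS and 6.52 to 12.0 in WT 5dw. In Act 5dw it was 2.45 to 4.49, below every WT 5dw library, while NS and 5dw overlapped within each genotype. The ratio was not tested.

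**Figure D3:**
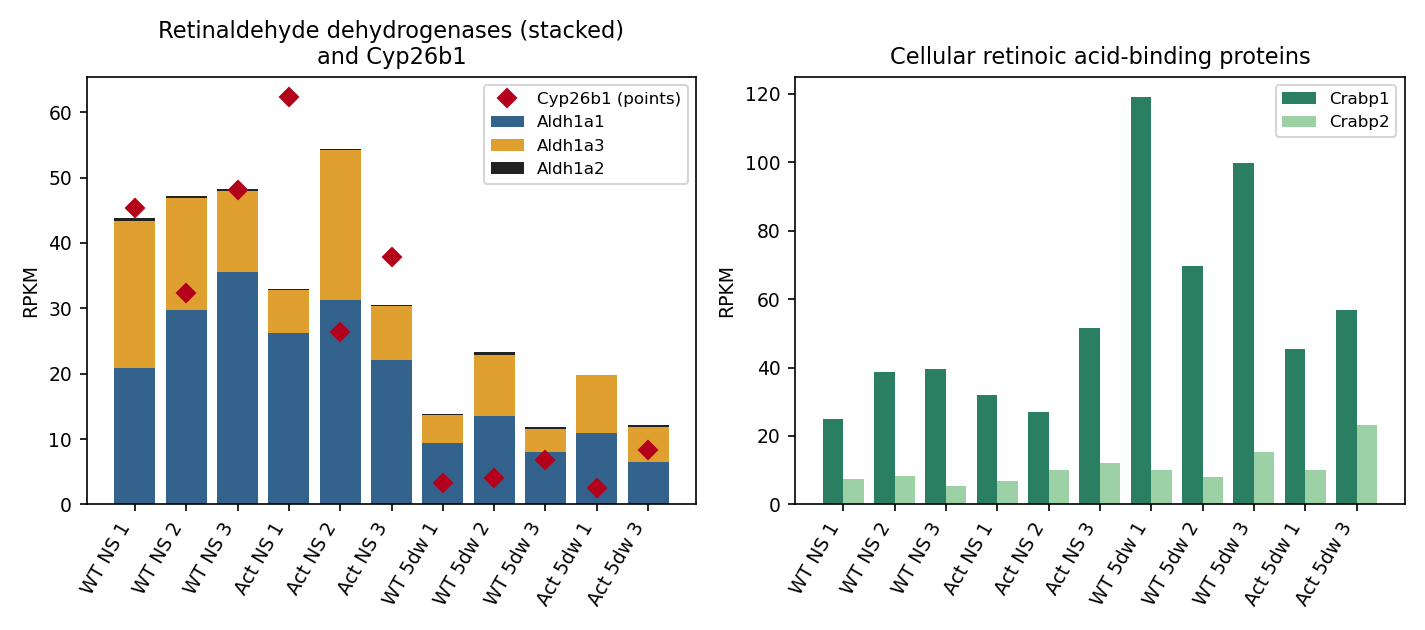
RPKM per library of the 3 retinaldehyde dehydrogenases as stacked bars with Cyp26b1 as diamonds (left) and of Crabp1 and Crabp2 as paired bars (right), all axes from 0. The summed enzymes stand at 30.6 to 54.4 RPKM in NS and 11.9 to 23.3 RPKM in 5dw, and the Crabp1 bars are tallest in the 3 WT 5dw libraries.

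Rarb encodes a retinoic acid receptor that retinoic acid itself induces through the promoter repeat given above (GRCm38, chr14:16430839-16819156, minus strand). It was at 1.49, 1.41 and 0.599 RPKM in WT NS and at 1.18, 1.33 and 0.502 RPKM in Act NS. It was at 0.772, 1.15 and 1.22 RPKM in WT 5dw and at 1.43 and 1.5 RPKM in Act 5dw. In both genotypes the NS library numbered 3 was the lowest. The log2FC of 5dw against NS was -0.07 in WT (SE 0.27, 95% interval -0.67 to 0.53, limma adjusted p = 0.836) and 0.43 in Act (SE 0.30, -0.24 to 1.10, limma adjusted p = 0.266). The sign of the WT value changed under median-ratio scaling, which gave 0.23. Rarb overlaps Top2b on the opposite strand, and whether the counting used strand is not stated in the sources used.

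Rarres2 encodes chemerin, a secreted attractant of leukocytes and an adipokine, and takes its name from its response to retinoids (chr6:48569696-48572789, minus strand). It was at 180, 175 and 122 RPKM in WT NS, 137, 159 and 120 RPKM in Act NS, 184, 179 and 229 RPKM in WT 5dw, and 121 and 209 RPKM in Act 5dw. NS and 5dw overlapped in both genotypes, and 2 of the 3 WT 5dw libraries lay above the highest WT NS library. The log2FC of 5dw against NS was 0.32 in WT (SE 0.23, 95% interval -0.18 to 0.82, limma adjusted p = 0.242) and 0.21 in Act (SE 0.25, -0.35 to 0.76, limma adjusted p = 0.524). Median-ratio scaling gave 0.78 in WT (limma adjusted p = 0.0275). Rarres2 overlaps Lrrc61 on the opposite strand.

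The activin transgene was compared with WT in each tissue, and these comparisons share their libraries with the comparisons of 5dw with NS. For Act NS against WT NS, 0 of the 8 genes were DEGs by limma, also by limma-voom on recovered reads. An unadjusted p under 0.05 was found for 0 of the 8 genes, against 824 of the 11979 tested genes. Among all tested genes 0.0167% were DEGs. The log2FC values lay between -0.61 for Aldh1a3 (95% interval -1.61 to 0.39) and 0.39 for Crabp2 (-0.32 to 1.11), with limma adjusted p from 0.729 to 0.941. The narrowest interval, that of Rbp4, was -0.70 to 0.29 around -0.20.

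For Act 5dw against WT 5dw, 0 of the 8 genes were DEGs by limma or limma-voom, and Crabp1 was the 1 gene of the 8 with an unadjusted p under 0.05, against 386 of the 11979 tested genes. Among all tested genes 0.0334% were DEGs. The log2FC values lay between -0.88 for Crabp1 and 0.50 for Crabp2, and every limma adjusted p was 1. For the interaction, 0 of the 8 genes and 0% of all tested genes were DEGs by limma, and limma-voom also called 0. At an unadjusted p under 0.05, the interaction held 400 of all tested genes and 1 of the 8. Aldh1a3 had the highest interaction of the 8, 0.98 (SE 0.68, 95% interval -0.52 to 2.49). Intervals of this width do not show that the genotypes respond alike.

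The order of the 4 groups by mean level differed between genes. For Aldh1a1 it was WT NS, Act NS, WT 5dw and Act 5dw from high to low, and only the neighbours Act NS and WT 5dw were apart. For Rbp4 it was Act 5dw, WT 5dw, WT NS and Act NS, and only WT 5dw and WT NS were apart. For Crabp1 it was WT 5dw, Act 5dw, Act NS and WT NS, and only the first pair was apart. For the other 6 genes every pair of neighbours overlapped, but groups that were not neighbours could be apart. For example, Rarb of Act 5dw lay above every Act NS and WT 5dw library. Aldh1a2 of Act NS and Aldh1a3 of WT 5dw lay below every WT NS library.

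The rest of the pathway was read from 7 lists of 48 genes, of which 34 were tested. In WT 3 rose and 20 fell with wounding (67.6% DEGs, against 58.3% of all tested genes), and in Act 3 rose and 18 fell (61.8%, against 45.6%). Since 48.8% of all tested genes fell in WT and 36.5% in Act, falls were common outside the pathway too, and the lists were not tested against other genes. The median log2FC was -0.74 in both genotypes. Under median-ratio scaling 5 were higher and 14 lower in WT, and 4 and 12 in Act. Of the 11979 tested genes, 2684 were then higher and 2655 lower in WT, and 2384 and 2492 in Act.

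**Figure D4:**
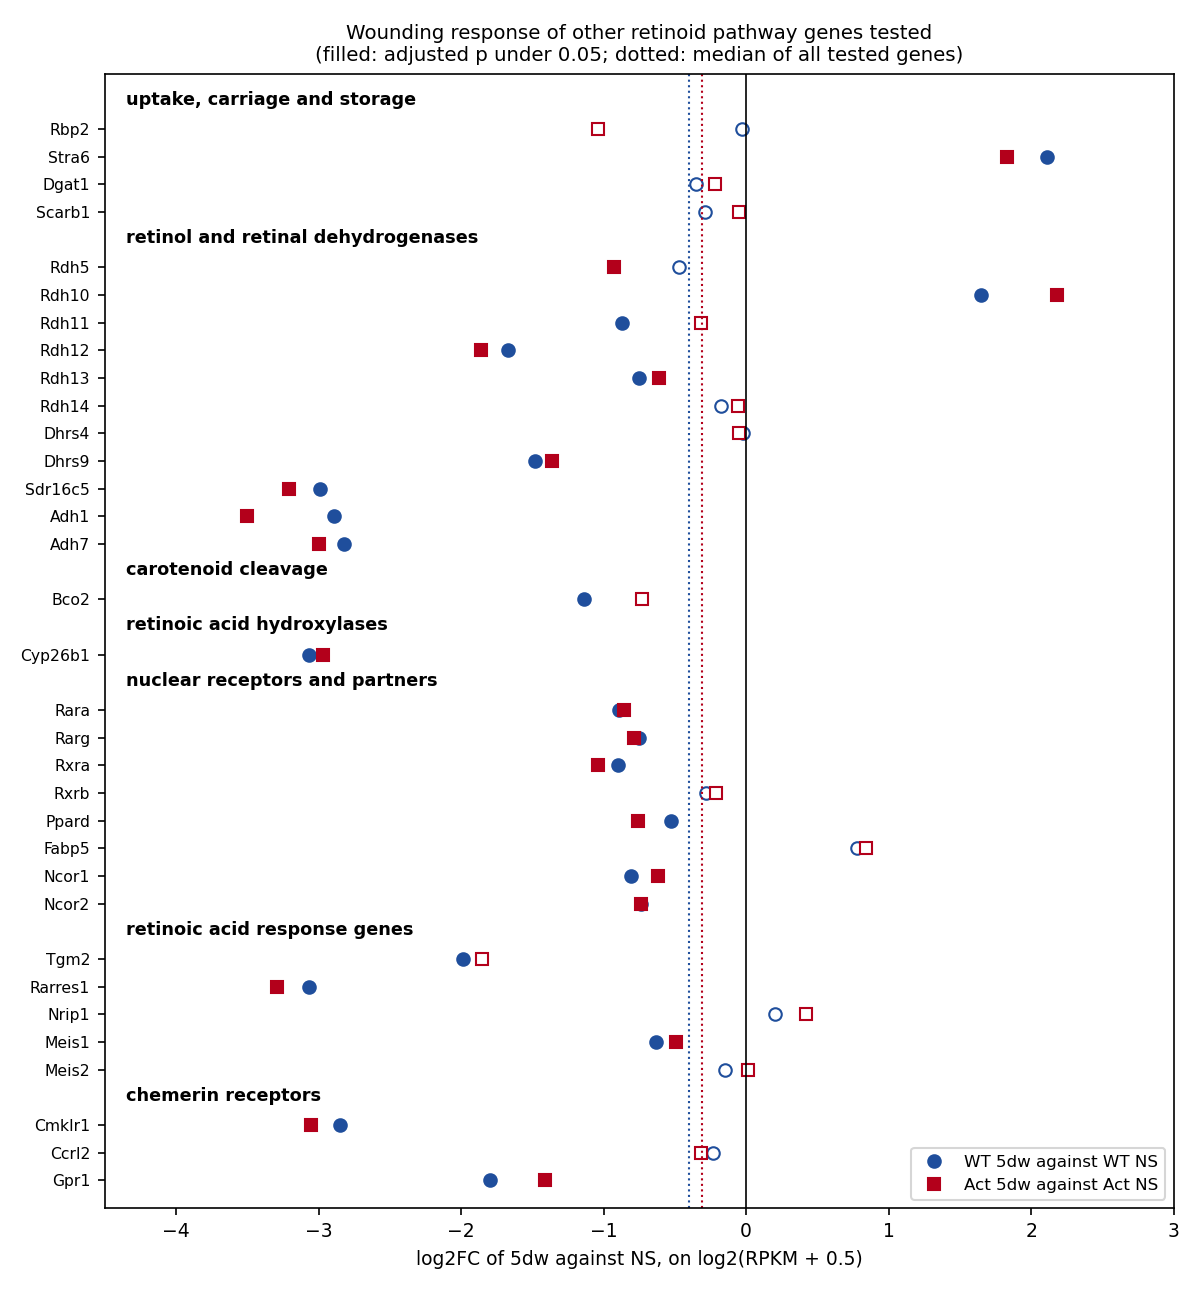
log2FC of 5dw against NS on log2(RPKM + 0.5) for other retinoid pathway genes tested, by role, in WT (circles) and Act mice (squares), with filled symbols for an adjusted p under 0.05 and dotted lines at the medians of all tested genes. Stra6 and Rdh10 lie to the right of 0 in both genotypes, and Adh1, Adh7, Sdr16c5, Cyp26b1, Rarres1 and Cmklr1 lie between -2.82 and -3.50.

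Stra6, the cell-surface receptor for RBP4, was at 0.0272 to 0.139 RPKM in NS and 1.42 to 2.53 RPKM in 5dw, a log2FC of 2.11 in WT (SE 0.19, limma adjusted p = 1.27e-05) and 1.83 in Act (SE 0.21, limma adjusted p = 9.41e-05). Its NS level lay under the pseudocount of 0.5 RPKM, so these log2FC values understate the difference in RPKM, as they do for other genes under 1 RPKM in a tissue. Lrat, which esterifies retinol for storage, stayed at 0 to 0.173 RPKM and was not tested. The carrier Rbp4 and its receptor Stra6 were thus both higher in 5dw.

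Among 11 tested retinol and retinaldehyde dehydrogenases, 1 rose and 7 fell in each genotype. Among all tested genes 48.8% fell in WT and 36.5% in Act. Under median-ratio scaling 2 of the 11 were higher and 7 lower in WT, and 1 and 5 in Act. Lower genes among all 11979 then numbered 2655 in WT and 2492 in Act. The dehydrogenase gene that rose without that scaling was Rdh10, the main retinol dehydrogenase of the embryo. It was at 5.49 to 7.76 RPKM in NS and 18.4 to 29.6 RPKM in 5dw. Its log2FC was 1.65 in WT (SE 0.15, limma adjusted p = 1.56e-05) and 2.18 in Act (SE 0.17, limma adjusted p = 9.73e-06). DHRS3 is known to act in a complex with RDH10 in the reverse direction. The ratio of Dhrs3 to Rdh10 in RPKM was 0.531 to 2.0 in NS and 0.226 to 0.369 in 5dw.

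Adh1 and Adh7, alcohol dehydrogenases, and Sdr16c5 had the lowest log2FC values of that list. Adh1 was at 26.6 to 41.1 RPKM in NS and 2.29 to 4.85 RPKM in 5dw, a log2FC of -2.89 in WT and -3.50 in Act (limma adjusted p = 1.83e-06 and 1.99e-06). Adh7 was at 17.8 to 24.1 RPKM in NS and 1.73 to 3.09 RPKM in 5dw, a log2FC of -2.82 in WT and -3.00 in Act (limma adjusted p = 8.46e-07 and 1.99e-06). Both stayed DEGs in both genotypes under median-ratio scaling. Sdr16c5, a retinol dehydrogenase of epithelia, had a log2FC of -2.99 in WT and -3.21 in Act. Rdh12 and Dhrs9 fell less, by log2FC values of -1.67 and -1.48 in WT and -1.86 and -1.36 in Act, and Dhrs9 was no longer called in Act under median-ratio scaling (limma adjusted p = 0.0567). The summed level of 9 sebocyte markers was 152 to 347 RPKM in NS and 67.0 to 76.2 RPKM in 5dw. That of 14 keratinocyte markers was 1390 to 5400 RPKM in NS and 178 to 1550 RPKM in 5dw. The part of sebocyte or keratinocyte RNA in these falls was not tested.

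The retinoic acid hydroxylase Cyp26b1, which degrades retinoic acid, fell in both genotypes. It was at 45.3, 32.4 and 48.1 RPKM in WT NS, 62.3, 26.3 and 37.9 RPKM in Act NS, 3.22, 4.06 and 6.82 RPKM in WT 5dw, and 2.44 and 8.39 RPKM in Act 5dw. The log2FC was -3.07 in WT (SE 0.42, limma adjusted p = 0.000179) and -2.97 in Act (SE 0.47, limma adjusted p = 0.000639). The ratio of Cyp26b1 to the sum of the 3 retinaldehyde dehydrogenases was 0.483 to 1.89 in NS and 0.123 to 0.695 in 5dw, and these ranges overlapped. Whether Cyp26b1 fell more than these enzymes was not tested.

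Among 8 tested nuclear receptors and partners, 0 rose and 6 fell in each genotype by limma, and under median-ratio scaling 2 were lower in WT and 3 in Act. The background of lower genes was 48.8% in WT and 36.5% in Act without that scaling. With it, 2655 (WT) and 2492 (Act) of the 11979 tested genes were lower. Rarg, the main retinoic acid receptor of skin, was at 19.6 to 36.3 RPKM in NS and 13.9 to 15.8 RPKM in 5dw, 9.67 to 54.4 times the RPKM of Rarb. Its log2FC was -0.75 in WT and -0.79 in Act (limma adjusted p = 0.00597 in WT). Rara had a log2FC of -0.89 in WT and -0.86 in Act, and Rxra, the partner of all RARs, of -0.90 and -1.04. Under median-ratio scaling Rara and Rarg were no longer called in WT (limma adjusted p = 0.0916 and 0.22) or in Act (0.0923 and 0.123), while Rxra still was (0.0317 and 0.00914).

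Among 5 tested retinoic acid response genes, 3 fell in WT and 2 in Act, beside the same unscaled background. Under median-ratio scaling 1 was higher and 1 lower in each genotype. Of the 11979 tested genes, 2684 were then higher and 2655 lower in WT, and 2384 and 2492 in Act. Rarres1 was at 6.55 to 12.6 RPKM in NS and 0.412 to 0.845 RPKM in 5dw, a log2FC of -3.07 in WT and -3.29 in Act. Tgm2, a transglutaminase, spread widely in WT NS, at 13.5, 50.6 and 151 RPKM, and was at 9.88, 12.4 and 12.3 RPKM in WT 5dw. Its log2FC was -1.99 in WT (SE 0.70, limma adjusted p = 0.0308, 0.094 under median-ratio scaling) and -1.85 in Act (SE 0.79, limma adjusted p = 0.0761). Dhrs3, Crabp2 and Rarb, which retinoic acid is also known to induce, were not called in either genotype on the RPKM scale. Under median-ratio scaling Crabp2 was called higher, at 1.01 in WT and 1.04 in Act (limma adjusted p = 0.0284 and 0.0432). Dhrs3 and Rarb stayed uncalled with that scaling.

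All 3 listed receptors of chemerin were tested, and 2 fell in each genotype, beside 48.8% (WT) and 36.5% (Act) of all tested genes. Cmklr1 encodes the signalling receptor of chemerin on leukocytes and other cells. It was at 4.89 to 16.5 RPKM in NS and 0.538 to 0.931 RPKM in 5dw. The log2FC of Cmklr1 was -2.85 in WT (SE 0.36, limma adjusted p = 0.000104) and -3.05 in Act. Gpr1 had a log2FC of -1.80 in WT and -1.41 in Act. While Rarres2 did not pass the test, the ratio of Rarres2 to Cmklr1 in RPKM was 7.41 to 35.8 in NS and 197 to 389 in 5dw. The summed level of 9 macrophage and dendritic cell markers was 11.1 to 19.7 RPKM in NS and 11.5 to 16.4 RPKM in 5dw.

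Of the 2 carotenoid cleavage genes 1 was tested, and it was a DEG in WT (lower) and not in Act. By limma and by limma-voom, 0 of the 34 pathway genes passed the interaction, Act NS against WT NS or Act 5dw against WT 5dw. In that order, 1, 2 and 1 of them had an unadjusted limma p under 0.05, against 400, 824 and 386 of all tested genes.

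For each tested gene, the genes with the most similar log2(RPKM + 0.5) over the 11 libraries were listed by Pearson's r, as a description. Points share depth and tissue, so these values carry no test. Aldh1a1 was closest to Ghr, the growth hormone receptor (r = 0.982), and to Has2os (r = 0.979). Aldh1a3 was closest to Tmeff2 (r = 0.987) and C1s1 (r = 0.972), and Rbp4 to the glycolytic gene Pgk1 (r = 0.987) and the protease gene Pcsk5 (r = 0.983). Crabp1 was closest to Tyms, which makes thymidylate for DNA synthesis (r = 0.941), and Tnfrsf21 (r = 0.936). Crabp2 was closest to Serinc2 (r = 0.916) and the carbonic anhydrase gene Car9 (r = 0.897). The closest genes were less alike for Rarb, namely Abi3bp (r = 0.849) and Syt17 (r = 0.83). Rarres2 was closest to Apool (r = 0.899) and Hist1h4c (r = 0.888), and Dhrs3 to Gnpda1 (r = 0.909) and Fbln7 (r = 0.873).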

How the data were processed

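Poly-A RNA of sorted fibroblasts was read in 11 libraries, and depth and markers are given above. The authors aligned 100 bp reads to GRCm38 and deposited RPKM values from CLC Genomics Workbench. They tested with the edgeR exact test, which takes counts and was not run here. Mapped reads were recovered as the totals that turn RPKM into whole reads (tolerance 0.03, 96.7% of tested genes).

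Genes with at least 1 RPKM in at least 2 libraries (11979) were fitted with limma-trend (limma 3.58.1, R 4.3.3) on log2(RPKM + 0.5), with 1 mean per group over all libraries and 7 residual degrees of freedom. Benjamini-Hochberg adjustment ran over all tested genes. An exact permutation test of 3 libraries against 3 cannot give a p under 0.1, so single genes rest on the model. Libraries are pools of 3 animals, and nothing states which animals they share. Intervals for a count of 0 cover counting error only.

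Libraries with the same replicate number deviated together in WT NS and WT 5dw (correlations 0.19, 0.12 and 0.11) and in WT NS and Act NS (0.55, 0.42 and 0.33), less so in Act NS and Act 5dw (0.02 and 0.14) and WT 5dw and Act 5dw (-0.08 and 0.19). The numbers were taken to pair the libraries of the first 2 comparisons.

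All 9 genes are named. Of the pathway lists, the 12 DEGs with the largest log2FC in WT are named, with Stra6, Lrat, Rdh10, Cyp26b1, Rara, Rarg, Rxra and Cmklr1, the 2 genes most alike to each of the 8, and Inhba. The result of 1 listed pathway gene is not reported here. Aldh1a7 and Ttr were added later. The genes, lists and tests were chosen with earlier results of these data known. Marker lists of pan-immune cells (9.86 to 16.7 RPKM summed), endothelial cells (21.9 to 39.0) and pericytes and smooth muscle (12.8 to 25.8) were also summed, and NS and 5dw overlapped in each. Gene positions came from GENCODE M21.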

Additional observations from a re-analysis of the deposited data

How the results depend on the processing

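Of 302 alternative values for wounding in single genes, 289 kept their direction and their side of the threshold. Those that did not are the median-ratio values and the library omissions given with Aldh1a3, Crabp1, Crabp2 and Rarres2, and sign changes in Rarb, Rarres2 and Dhrs3. The count of DEGs among the 8 genes was 4 of 8 in WT under every library omission and 2 to 3 in Act, and median-ratio scaling gave 5 in WT and 4 in Act. A minimum of 5 RPKM lowered the DEGs to 3771 in WT and 3104 in Act, since fewer genes were tested. Leaving out each library gave 5791 to 7355 DEGs in WT, 3509 (without Act 5dw 3) to 5874 in Act, 0 to 7 for Act NS against WT NS, 0 to 4 for Act 5dw against WT 5dw and 0 to 2 for the interaction. The 2 DEGs of Act NS against WT NS became 9 without a minimum level, 1 at 5 RPKM, 0 with only the groups compared and 1 with limma-voom. The 4 of Act 5dw against WT 5dw became 18 without a minimum level, 2 under scaling and 2 with limma-voom. The interaction went from 0 to 10 without a minimum level. The cause of these changes was not tested.

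With the replicate block, the counts of DEGs among the 8 genes were 4 in WT and 2 in Act, and among the pathway genes 23 and 23, so the block changed no call of the 8. It turned the interaction of Dhrs3 to -0.08, and scaling turned it to -0.07. Scaling also gave 0.23 for Rarb in WT and 0.05 for Aldh1a1 in Act NS against WT NS. Leaving out 1 library turned the sign of values near 0: -0.35 to 0.08 for Rarb in WT, -0.19 to 0.60 for Rarres2 and -0.08 to 0.55 for Dhrs3 in Act. For Act NS against WT NS the ranges were -0.30 to 0.08 (Aldh1a1), -0.20 to 0.26 (Crabp1) and -0.42 to 0.12 (Rarb). For Act 5dw against WT 5dw they were -0.59 to 0.11 (Aldh1a1), -0.23 to 0.53 (Rbp4), -0.08 to 1.08 (Crabp2) and -0.69 to 0.10 (Rarres2). For the interaction they were -0.50 to 0.20 (Aldh1a1), -0.02 to 0.73 (Rbp4), -0.47 to 0.69 (Crabp2), -0.51 to 0.28 (Rarres2) and -0.30 to 0.33 (Dhrs3). Aldh1a2 and Rarb rest on few reads. The limma-voom fit and the counts of pathway genes were added after seeing the data.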
